A study of Mus musculus with 6 samples.

Results

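The genes described here code for the proteins of the mitochondrial ribosome, measured in mouse macrophages lacking E-FABP and in wild-type macrophages after both had been cultured with tumour cells. Members were all probe sets with a single gene symbol that starts with Mrpl (large subunit) or Mrps (small subunit) followed by a digit. When a gene had several probe sets, the brightest of them, by its mean over all 6 arrays, represented it. This gave 76 of the 18193 genes with a named probe set, 47 of the large and 29 of the small subunit.

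Each genotype was represented by 3 arrays. The knockout cells came from mice without the fatty acid carrier E-FABP, whose gene is Fabp5, and the wild-type cells from C57BL/6 mice, the strain given for both genotypes. In both, bone marrow of mice aged 6 to 8 weeks had spent 7 days in medium with 5% serum and 20 ng/ml of GM-CSF, a growth factor whose cultures hold macrophages and cells with dendritic cell features. Macrophages (1000000 per well) then shared a well of a 12-well plate with 1000000 cells of E0771, a breast tumour line of the mouse, which an insert kept apart during the 18 h. No array of macrophages without tumour cells was analysed here. The labels call the samples biological replicates without tying each to an animal, so the p-values measure only the spread between these samples. RNA was read on Affymetrix 3' expression arrays, and each value below is the log2 intensity of a probe set as deposited.

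The mitochondrial ribosome, or mitoribosome, translates the few messenger RNAs that mitochondrial DNA encodes, all of them for subunits of the respiratory chain and ATP synthase. Its ribosomal RNAs are made inside the organelle, while all of its proteins are encoded in the nucleus, made in the cytosol and imported. The small subunit reads the messenger RNA, and the large subunit joins the amino acids and threads the new chain through an exit tunnel towards the inner membrane. Many of the proteins have a counterpart in the bacterial ribosome, and the rest are found only in mitochondria.

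Fabp5, the targeted gene, read 8.13, 8.31 and 8.39 in knockout macrophages, against 14.47, 14.41 and 14.45 in wild-type macrophages (difference -6.17, SE 0.08, limma adjusted p = 1.96e-09). The 6 arrays thus fell apart by genotype as labelled, although the labels do not state which part of the gene the knockout allele lacks. Of 9 macrophage markers on named probe sets, all 9 lay above 5.63, the median of all values, among them Csf1r, the receptor for the growth factor M-CSF, and Adgre1, the F4/80 antigen. Array medians lay between 5.60 and 5.64.

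Messenger RNAs for most mitoribosomal proteins read slightly higher in E-FABP knockout macrophages than in wild-type macrophages. Of the 76 genes, 71 (93.4%) had the higher mean in knockout cells, against 53.1% of all genes and 66.3% of the 8777 genes whose level lay in the members' own range of 6.38 to 11.77. These 8777 are called genes at the members' levels below. Their median level was 8.48, against 9.26 for the members, so levels were not matched gene by gene. For 57 members (75%), all 3 knockout values lay above all 3 wild-type values, which was so for 20.7% of all genes and 34.3% of the genes in that range. For 2 members all knockout values lay below (background 11.2%), and 17 overlapped. The differences were small. Their median was 0.17 on the log2 scale, a 1.12-fold difference, beside 0.01 for all genes and 0.06 for the genes at the members' levels, and the largest single difference was 0.34, or 1.27-fold. In these bulk cultures, more cells of a kind rich in these RNAs and more of the RNA per cell cannot be told apart.

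Few of the differences passed the test for a single gene. With 3 arrays per genotype, limma's SE of a member's difference was 0.07 at the median. Only 3 members rose at an adjusted p under 0.05 over all probe sets and 0 fell, which is 3.95% of members rising against 2.85% of all genes and 4.93% of genes at the members' levels rising, and a background of 2.05% falling. A share so near the background is no result about the group. At an unadjusted p under 0.05, 43 members were higher (56.6%, against 15.2% of all genes and 25.2% of genes at the members' levels). At that p 1 member was lower, beside 1482 of the 18193 genes. A looser adjusted p of 0.1 gave 20 higher (26.3%, against 7.04%) and 1 lower (1.32%, against 3.63%). With any 1 of the 6 arrays left out, 0 members were called, and between 28 and 39 were higher at an unadjusted p under 0.05. For those fits no share of all genes at that p is given here, so the 28 to 39 stand without a background.

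**Figure D1:**
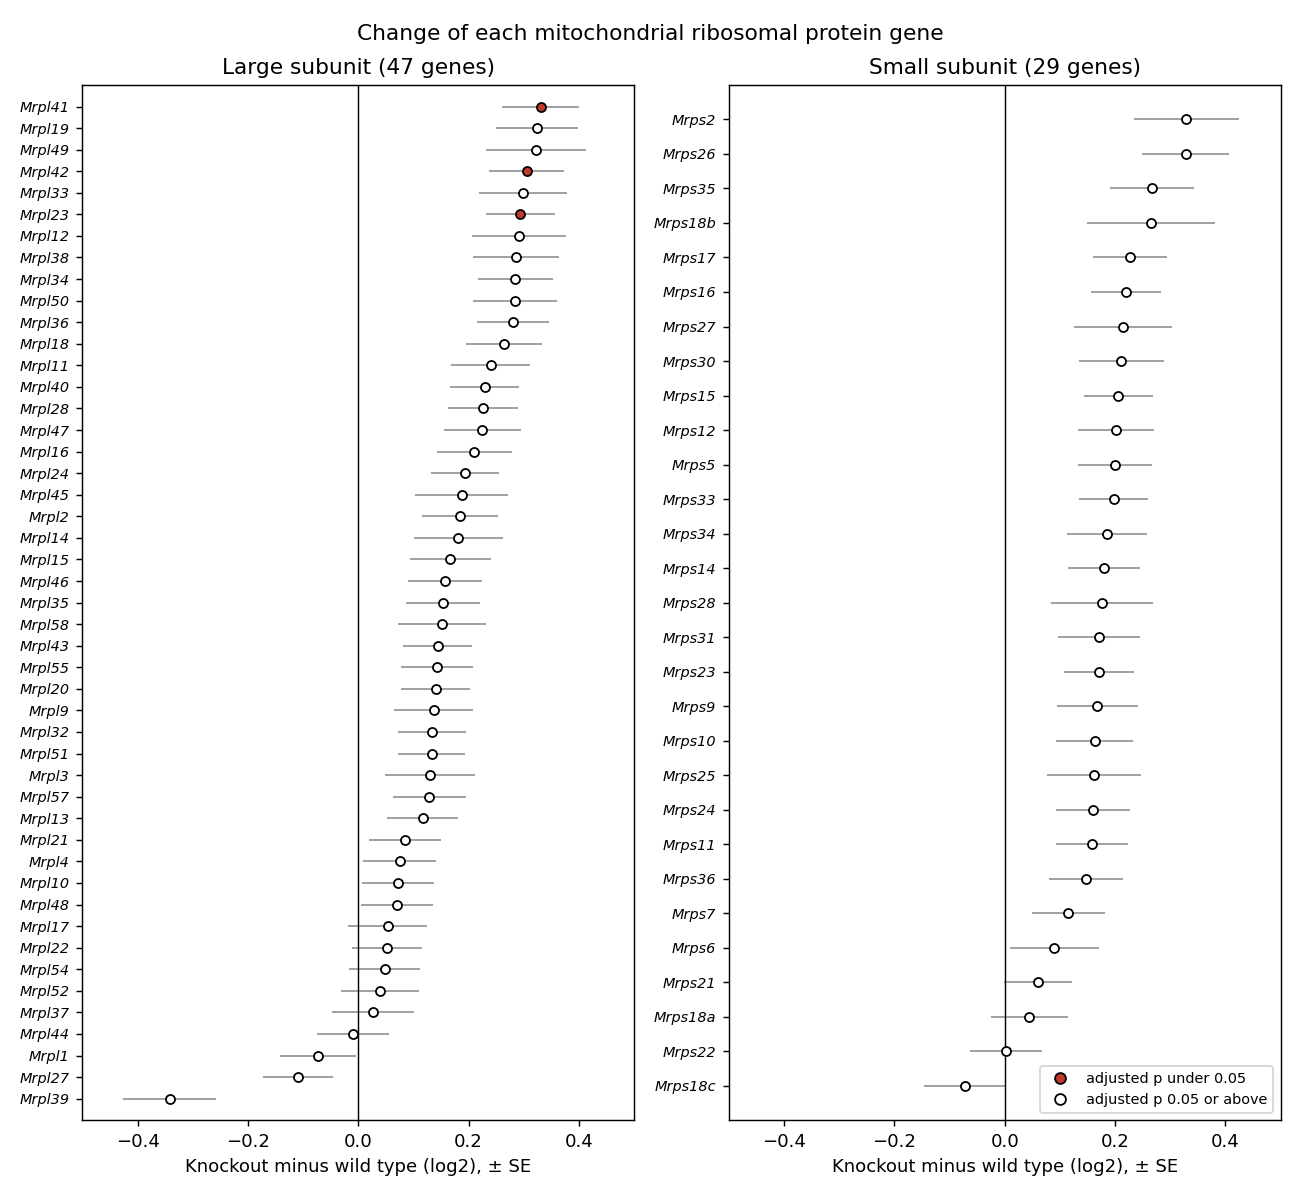
Difference between E-FABP knockout and wild type (log2) for each of the 76 mitoribosomal protein genes, large and small subunit in separate panels and ordered by size; points are limma's differences and bars 1 SE (3 arrays per genotype), with filled symbols for the 3 genes past the threshold. The points lie right of 0 for 43 of 47 large subunit genes and 28 of 29 small subunit genes, and no gene lies more than 0.34 from 0.

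Promoters are shown for the genes on which the results turn: Mrpl41, Mrpl23 and Mrpl42, which rose, Mrpl39, the member that differed most the other way, and Mrps26, the small subunit gene with the smallest p. Each runs 5′ to 3′ on the gene's strand from 250 bases before to 50 after the RefSeq start (GRCm38.p6), which is independent of the arrays. Capitals mark matches, on either strand, to 4 motifs known from promoters of genes for mitochondrial proteins: the E-box CACGTG bound by Myc, the ETS core CCGGAAG bound by factors such as GABPA, GCGCATGCG bound by NRF1, and AAGATGGCG bound by YY1.
Mrpl41, chr2:24975049-24975348, minus strand: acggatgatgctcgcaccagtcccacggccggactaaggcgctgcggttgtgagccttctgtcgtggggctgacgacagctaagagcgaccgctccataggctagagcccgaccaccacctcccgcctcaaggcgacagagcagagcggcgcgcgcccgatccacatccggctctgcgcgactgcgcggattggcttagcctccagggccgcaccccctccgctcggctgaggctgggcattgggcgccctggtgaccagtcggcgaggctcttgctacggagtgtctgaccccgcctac
Mrpl23, chr7:142532782-142533081, plus strand: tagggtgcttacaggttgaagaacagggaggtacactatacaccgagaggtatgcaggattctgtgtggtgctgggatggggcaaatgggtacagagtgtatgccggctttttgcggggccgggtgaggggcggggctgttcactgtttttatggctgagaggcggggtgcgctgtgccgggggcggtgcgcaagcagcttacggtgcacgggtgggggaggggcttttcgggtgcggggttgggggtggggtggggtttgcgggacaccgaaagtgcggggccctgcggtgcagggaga
Mrpl42, chr10:95501900-95502199, minus strand: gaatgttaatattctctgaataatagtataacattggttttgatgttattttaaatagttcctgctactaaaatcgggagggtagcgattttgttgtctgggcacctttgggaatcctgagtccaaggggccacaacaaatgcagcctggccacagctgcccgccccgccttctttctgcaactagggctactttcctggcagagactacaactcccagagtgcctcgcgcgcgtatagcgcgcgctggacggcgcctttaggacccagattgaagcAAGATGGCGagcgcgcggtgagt
Mrpl39, chr16:84735195-84735494, minus strand: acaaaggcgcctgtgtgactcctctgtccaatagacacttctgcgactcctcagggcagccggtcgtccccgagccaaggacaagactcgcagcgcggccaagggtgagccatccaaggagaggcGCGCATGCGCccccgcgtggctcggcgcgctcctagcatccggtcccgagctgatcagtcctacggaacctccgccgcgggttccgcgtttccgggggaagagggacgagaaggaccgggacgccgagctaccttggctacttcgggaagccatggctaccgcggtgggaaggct
Mrps26, chr2:130563507-130563806, plus strand: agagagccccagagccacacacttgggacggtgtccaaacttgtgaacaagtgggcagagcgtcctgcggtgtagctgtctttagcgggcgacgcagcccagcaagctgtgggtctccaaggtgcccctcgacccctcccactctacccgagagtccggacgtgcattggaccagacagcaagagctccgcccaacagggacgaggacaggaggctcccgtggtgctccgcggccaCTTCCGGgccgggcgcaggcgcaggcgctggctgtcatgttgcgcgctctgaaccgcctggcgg

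The Mrpl42 promoter holds 1 YY1 match, the Mrps26 promoter 1 ETS match, and the Mrpl39 promoter a palindromic stretch that matches the NRF1 motif on both strands. None of the 4 motifs is written in the windows of Mrpl41 and Mrpl23, which says nothing about the factors themselves. RefSeq promoters were matched for 67 of the 76 genes. The ETS core was found in 25 of these 67 (37.3%), against 15% of the 14368 genes on the array with a matched promoter and 8.86% of all 32851 promoters. The NRF1 motif was in 7 (10.4%, against 3.10% and 1.75%), the YY1 motif in 8 (11.9%, against 2.54% and 1.40%) and the E-box in 5 (7.46%, against 10.3% and 7.15%). No matches of different motifs overlapped. Among the matched members, the ETS core was in 16 of 51 (31.4%) whose knockout values all lay above the wild-type values and in 9 of the other 16 (56.3%). These counts describe the letters of the windows and were not tested.

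Among the 47 large subunit genes, 43 had the higher mean in knockout macrophages. Of these 3 rose past the threshold, 0 genes fell, and the median difference was 0.15 (1.11-fold, quartiles 0.08 and 0.25). All knockout values lay above all wild-type values for 34 genes (72.3%, against 20.7% of all genes and 34.3% at the members' levels). They lay below for 2 (background 11.2%), and 11 genes overlapped.

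Mrpl41, a large subunit protein without a bacterial counterpart, had values of 10.26, 10.23 and 10.18 in knockout macrophages, against 9.90, 9.81 and 9.97 in wild-type macrophages. No knockout value reached into the wild-type range. The means were 10.22 ± 0.04 in knockout and 9.89 ± 0.08 in wild type (SD, n = 3 each), a rise of 0.33 with limma's SE at 0.07 and its adjusted p at 0.0381, and 1.26-fold on the linear scale. Mrpl23, which belongs to the ring of proteins around the exit of the tunnel, read 10.16, 10.13 and 10.08 in knockout macrophages, against 9.84, 9.81 and 9.84 in wild-type macrophages. The genotypes stood apart by more than the spread within either of them. Its means of 10.13 ± 0.04 in knockout and 9.83 ± 0.02 in wild type (SD, n = 3 each) differed by 0.29 (SE 0.06, limma adjusted p = 0.0389). Mrpl42, a protein of mitochondria alone, read 10.29, 10.33 and 10.22 in knockout macrophages, against 9.98, 9.91 and 10.03 in wild-type macrophages. Here too every knockout value exceeded every wild-type value, with a rise of 0.31 (SE 0.07, limma adjusted p = 0.0456). The adjusted p of each of the 3 exceeded 0.05 whichever array was left out, reaching 0.120 for Mrpl41, 0.122 for Mrpl23 and 0.141 for Mrpl42.

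**Figure D2:**
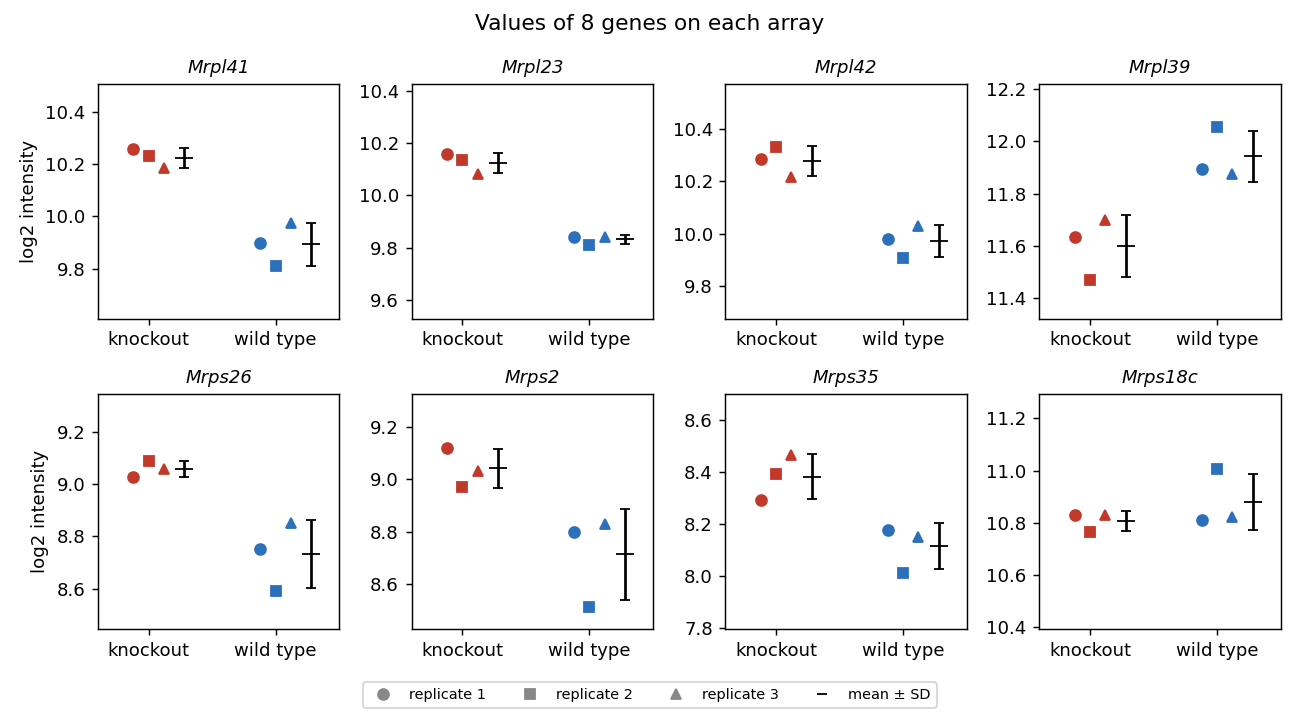
Log2 intensity on each array for 8 mitoribosomal protein genes, with knockout at the left and wild type at the right of each panel; symbols are single arrays, bars the mean ± SD of 3, and every vertical axis spans an equal range. Mrpl41, Mrpl23, Mrpl42, Mrps26, Mrps2 and Mrps35 read higher on every knockout array than on any wild-type array, Mrpl39 read lower on every knockout array, and the genotypes of Mrps18c overlapped.

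Mrpl39, a protein with a fold like that of tRNA synthetases, stood out on the other side. It read 11.63, 11.47 and 11.70 in knockout macrophages, against 11.90, 12.06 and 11.87 in wild-type macrophages, so that all knockout values lay below all wild-type values. The means were 11.60 ± 0.12 in knockout and 11.94 ± 0.10 in wild type (SD, n = 3 each), a difference of -0.34 with an SE of 0.08 that did not pass the threshold (limma adjusted p = 0.0598). Its second probe set read 9.89, 9.70 and 10.04 in knockout macrophages, against 10.22, 10.32 and 10.17 in wild-type macrophages, a difference of -0.36 (limma adjusted p = 0.0694). Both probe sets of the gene therefore differed in the same direction and to nearly the same extent, opposite to most of the subunit. Mrpl27, which reaches towards the catalytic centre, also lay lower on every knockout array, at 10.94, 10.93 and 11.00 in knockout macrophages, against 11.07, 11.09 and 11.03 in wild-type macrophages (difference -0.11, limma adjusted p = 0.387). The other lower means were those of Mrpl1, in the mobile L1 stalk, at -0.07 with overlapping genotypes, and Mrpl44, an RNase III-like protein, at -0.01.

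By place in the subunit, all 7 proteins counted here at the tunnel exit had the higher mean in knockout cells (median 0.19). They ranged from Mrpl23 at 0.29 to Mrpl22 at 0.05, with Mrpl47 at 0.22, Mrpl24 at 0.19 and Mrpl45, which anchors the ribosome to the inner membrane, at 0.19. All 5 proteins of the central protuberance, where the large subunit faces the small one, were higher (median 0.23), with Mrpl38 at 0.29, Mrpl18 at 0.26, Mrpl40 at 0.23, Mrpl46 at 0.16 and Mrpl48 at 0.07. Of 4 proteins of the stalks and the stalk base, 3 were higher (median 0.16). Mrpl12, which recruits translation factors as part of the stalk, lay 0.29 higher (limma adjusted p = 0.0944), Mrpl11 at its base 0.24 higher and Mrpl10 0.07 higher. Of the 5 core proteins near the catalytic centre, 4 were higher (median 0.13), with Mrpl16 at 0.21 and Mrpl2 at 0.18. Mrpl58, a peptidyl-tRNA hydrolase that frees stalled ribosomes, differed by 0.15. Apart from Mrpl23, none of these passed the threshold.

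The 13 other large subunit proteins with a bacterial counterpart all had higher knockout values on every array. Mrpl19 came closest to the threshold, at 8.74, 8.57 and 8.71 in knockout macrophages, against 8.32, 8.30 and 8.43 in wild-type macrophages (difference 0.32, limma adjusted p = 0.0501). Mrpl36 differed by 0.28 (limma adjusted p = 0.0516), Mrpl34 by 0.28 (limma adjusted p = 0.0551) and Mrpl33 by 0.30, all 3 of them small proteins of the bacterial type, and Mrpl28 by 0.23. The remaining 8 (Mrpl9, Mrpl13, Mrpl14, Mrpl15, Mrpl20, Mrpl21, Mrpl35 and Mrpl55) lay between 0.09 and 0.18. Of the 12 other large subunit proteins known only from mitochondria, 10 had higher means (median 0.13). Besides Mrpl41 and Mrpl42 these included Mrpl49 at 0.32 (limma adjusted p = 0.0882) and Mrpl50 at 0.28, while Mrpl37, Mrpl52 and Mrpl54 differed by less than 0.05.

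Of the 29 small subunit genes, 28 had the higher mean in knockout macrophages, with a median difference of 0.18 (1.13-fold, quartiles 0.16 and 0.21). By limma 0 passed the adjusted threshold in either direction. At an unadjusted p under 0.05, 20 were higher (69.0%, against 15.2% of all genes and 25.2% at the members' levels) and 0 lower. All knockout values lay above all wild-type values for 23 genes (79.3%, against 20.7% of all genes and 34.3% at the members' levels), and 6 overlapped.

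Mrps26, a small subunit protein without a bacterial counterpart, read 9.03, 9.09 and 9.06 in knockout macrophages, against 8.75, 8.59 and 8.85 in wild-type macrophages. The genotypes did not overlap, and the difference was 0.33 (SE 0.08, limma adjusted p = 0.0561). Mrps2, the counterpart of a bacterial protein of the subunit's back, read 9.12, 8.97 and 9.03 in knockout macrophages, against 8.80, 8.51 and 8.83 in wild-type macrophages. Its difference was also 0.33, but with replicate 2 of the wild type well below the other wild-type arrays (SE 0.09, limma adjusted p = 0.0918). Without that array the difference of Mrps2 was 0.23 and that of Mrps26 was 0.26. Mrps35, another protein of mitochondria alone, read 8.29, 8.39 and 8.46 in knockout macrophages, against 8.18, 8.01 and 8.15 in wild-type macrophages, a difference of 0.27 (limma adjusted p = 0.0913). Mrps16, Mrps17 and Mrps15, which bind the subunit's ribosomal RNA, differed by 0.22, 0.23 and 0.21 with no overlap (limma adjusted p = 0.0933, 0.0977 and 0.107). Their values had little spread within the knockout. Mrps16, for example, read 10.45, 10.46 and 10.47 in knockout macrophages, against 10.19, 10.25 and 10.29 in wild-type macrophages.

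The 5 proteins that line the messenger RNA path and the decoding centre all had higher values on every knockout array (median 0.16). Mrps12 of the decoding centre differed by 0.20, Mrps5 by 0.20, Mrps24 by 0.16, Mrps11 by 0.16 and Mrps7 by 0.12, none past the threshold. The exception in direction was Mrps18c, 1 of 3 related proteins of the S18 type. It read 10.83, 10.76 and 10.83 in knockout macrophages, against 10.81, 11.00 and 10.82 in wild-type macrophages, so that the genotypes overlapped and the difference of -0.07 rested on replicate 2 of the wild type (-0.01 without it). The related Mrps18b and Mrps18a differed by 0.27 and 0.04. Mrps22, known only from mitochondria, differed by 0.0025. Mrps14, which belongs to the subunit's head, read 11.19, 11.19 and 11.13 in knockout macrophages, against 10.93, 11.02 and 11.01 in wild-type macrophages without overlap, a difference of 0.18 (limma adjusted p = 0.159). The RNA-binding protein Mrps27 differed by 0.21 but overlapped, with values of 6.51, 6.43 and 6.51 in knockout macrophages, against 6.15, 6.20 and 6.45 in wild-type macrophages.

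A few members carry names that hide their place. Mrps30 and Mrps18a sit in the large subunit despite their symbols, and Mrps36 is now assigned to the α-ketoglutarate dehydrogenase complex. Mrps30 differed by 0.21 (limma adjusted p = 0.164) and Mrps36 by 0.15 (limma adjusted p = 0.259). Counting Mrps30 and Mrps18a with the large subunit left 3 large and 0 small subunit genes called. Members with and without a bacterial counterpart had close medians. The 47 with one had a median of 0.17 and 44 higher means, and the 29 without had a median of 0.17 and 27 higher means. No test of a difference was made between the subunits or between these classes.

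Members in different parts of the genome shared the direction. They lay on 17 chromosomes, with at most 11 on 1 of them, and their median difference was positive on all 17, between 0.08 and 0.33. On chromosome 3, which carries Fabp5, the 5 members were Mrpl47 at 0.22, Mrpl24 at 0.19, Mrps28 at 0.18, Mrpl9 at 0.14 and Mrps21 at 0.06. None of these 5 passed the threshold. Chromosome 13 carries Nnt, a mitochondrial transhydrogenase gene known to differ between substrains of C57BL/6. Nnt read 9.85, 9.29 and 9.88 in knockout macrophages, against 8.37, 8.82 and 9.07 in wild-type macrophages, and rose by 0.92 (SE 0.20, limma adjusted p = 0.0392). The genotypes did not overlap, and the gene passed without knockout replicate 2 or wild-type replicate 3 but with no other array left out. The labels name no substrain, and what part a difference in strain background had in the mitoribosomal values was not tested. The 5 members on chromosome 13 were Mrpl36 at 0.28, Mrps30 at 0.21, Mrps27 at 0.21, Mrps36 at 0.15 and Mrpl32 at 0.13, none past the threshold.

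Within a gene, probe sets did not always read alike. The 76 genes had 156 probe sets, of which 127 had the higher mean in knockout cells and 29 the lower, and 5 rose past the threshold with 0 falling (background 2.06% rising and 1.7% falling, over all probe sets). Besides those of Mrpl41, Mrpl23 and Mrpl42, these were a probe set of Mrpl1 at 0.32 (limma adjusted p = 0.0389) and a dim probe set of Mrps23 at 0.30 (limma adjusted p = 0.0412). The brighter probe sets of these genes differed by -0.07 for Mrpl1 and 0.17 for Mrps23, and neither passed. Of 42 genes with several probe sets, 23 had sets of opposite sign, and 10 of 32 when sets under the median level were left out. Mrpl21, a large subunit protein of the bacterial type, was the single gene with opposite signs at an unadjusted p under 0.05 in both sets, at 0.16 and -0.15, while the set that stood for it gave 0.09.

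The differences between the genotypes were spread evenly over the knockout arrays and less so over the wild-type arrays. Relative to each gene's mean over the 6 arrays, the 76 members averaged 0.08, 0.08 and 0.08 above it in knockout replicates 1, 2 and 3, and -0.08, -0.13 and -0.03 in wild-type replicates 1, 2 and 3. Thus every knockout array lay above every wild-type array, for the large and for the small subunit. Members above their own mean numbered 66, 65 and 70 of 76 on the knockout arrays, against 9, 7 and 19 on the wild-type arrays. Replicate 2 of the wild type held the lowest value for 51 of the 76 genes. Without it, the median difference was 0.14 for the large and 0.17 for the small subunit.

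**Figure D3:**
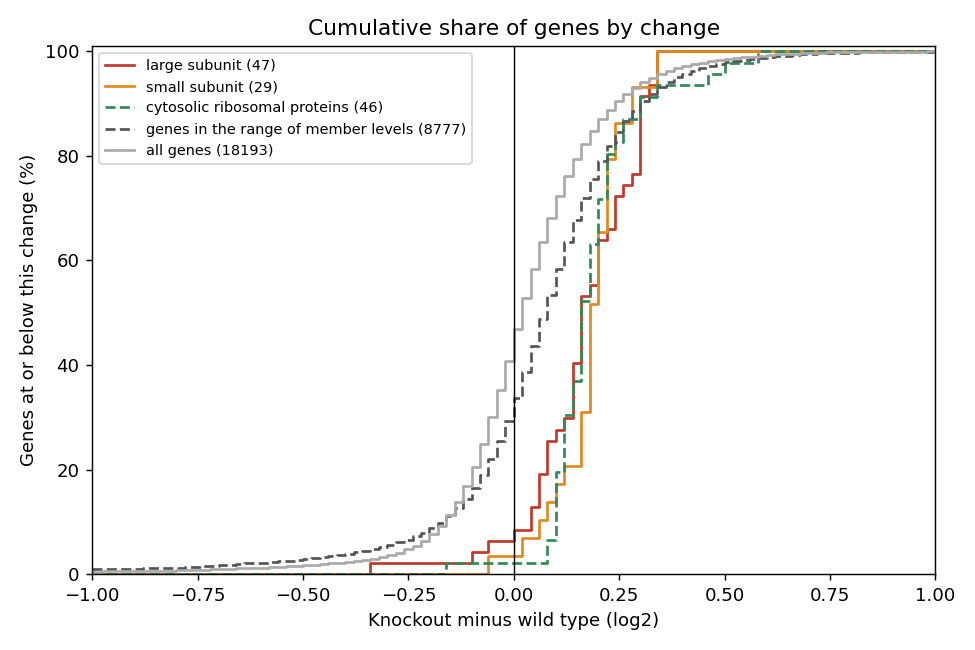
Cumulative share of genes (percent) by knockout minus wild-type difference (log2) for large and small subunit genes, cytosolic ribosomal protein genes, all 18193 genes and the 8777 genes in the range of member levels. Up to about 0.20 both subunits' curves lie to the right of the curves of all genes and of genes in that range. Their medians are 0.15 and 0.18, beside 0.01 for all genes and 0.06 for genes in that range.

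Genes that work with the mitoribosome were read from lists of known factors. For comparison, 53.1% of all genes had the higher mean in knockout cells, and 15.2% were higher at an unadjusted p under 0.05. The 4 measured subunits without an Mrpl or Mrps symbol all had higher means (median 0.22, 0 past the threshold, 3 at an unadjusted p under 0.05). They were Gadd45gip1 at 0.27 (limma adjusted p = 0.06), Ptcd3 at 0.26, Chchd1 at 0.17 and Dap3 at 0.09. Of 15 mitochondrial translation factors and tRNA modifiers, 14 had higher means (median 0.21, 0 past the threshold, 11 at an unadjusted p under 0.05). Pdf, which removes the formyl group from new chains, differed by 0.33 (limma adjusted p = 0.0736), the tRNA modifiers Gtpbp3 and Mto1 by 0.29 and 0.20, and the initiation factor Mtif2 by 0.22. Of 30 assembly and rRNA-modifying factors, 28 had higher means (median 0.17, 0 past the threshold, 14 at an unadjusted p under 0.05). C1qbp, a matrix protein needed for mitochondrial translation, differed by 0.39 (limma adjusted p = 0.0614), the GTPase Noa1 by 0.28, the rRNA methyltransferase Mettl15 by 0.42 and Ngrn by 0.23.

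Of 16 mitochondrial tRNA synthetases, 14 had higher means (median 0.19, 0 past the threshold). At an unadjusted p under 0.05, 7 were higher (43.8%, against 15.2% of all genes). Cars2 differed by 0.34 (limma adjusted p = 0.0642), Nars2 by 0.30, Lars2 by 0.24 and Yars2 by 0.37. In the list of mitochondrial transcription and RNA handling, 18 of 21 genes had higher means (median 0.16), among them the transcription factor Tfb2m at 0.36 (limma adjusted p = 0.0509), the RNA-stabilising Lrpprc at 0.32 and the RNase P subunit Hsd17b10 at 0.24. The 1 gene of that list past the threshold fell. This was Pnpt1, the mitochondrial polynucleotide phosphorylase and also an interferon-induced gene, at -0.72 (SE 0.13, limma adjusted p = 0.0255). The regulators of mitochondrial genes did not share a direction, with 6 of 12 higher (median 0.01). Myc, a driver of ribosome production, rose by 0.39 (SE 0.08, limma adjusted p = 0.0329). Its partner Max differed by -0.30, the coactivators Ppargc1a and Ppargc1b by -0.32 and 0.36, and Ppargc1a lay below the median level of the arrays. Leaving out 1 array at a time, Pnpt1 passed only without knockout replicate 3 and Myc only without wild-type replicate 3.

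The ribosome of the cytosol read much the same. Of 46 of its protein genes, 45 had the higher mean in knockout macrophages (median 0.16), 42 with no overlap (91.3%). No overlap in that direction was seen for 20.7% of all genes and 30.7% of genes above the median level. The list's own median level was higher still, at 13.22. Past the threshold 3 of the 46 rose, beside 2.85% of all genes and 4.32% of genes above the median level. The 3 were Rps4l at 0.45, Rpl37 at 0.32 and Rpl14 at 0.50 (limma adjusted p = 0.0266, 0.0293 and 0.0441), and Rpsa lay 0.29 higher. With any 1 array left out, 0 to 2 of the 46 were called. No test set the mitochondrial against the cytosolic list, so the difference in the mitochondrial list is not shown to be particular to it.

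Markers of other cells and of division also differed between the genotypes. For comparison, 2.85% of all genes rose past the threshold and 2.05% fell. With 1 array left out, 0.0495% to 2.03% of all genes rose and 0.044% to 2.2% fell. Both shares were highest without knockout replicate 3. Of 22 cell cycle genes, 19 had higher means in knockout cells and 13 rose (median 0.56), with the smallest p for the replication helicase subunits Mcm3 at 0.71, Mcm4 at 0.68 and Mcm7 at 0.69 and for Rrm2, which makes deoxynucleotides, at 1.19. Leaving out replicate 1 or 2 of either genotype brought the count to 0, leaving out the wild-type replicate 3 brought it to 5, and leaving out the knockout replicate 3 gave 14. This list stood 0.26, 0.40 and 0.04 above its genes' means on knockout arrays, against -0.22, -0.37 and -0.11 on wild-type arrays. The mitoribosomal genes stood at 0.08 on all 3 knockout arrays and so give no order to compare there. Across the wild-type arrays both lists were lowest on replicate 2 and highest on replicate 3. Of 13 dendritic cell markers, 10 had higher means (median 0.33) and 1 rose, Batf3 at 0.53 (limma adjusted p = 0.0382), with summed levels of 13.22 to 13.87 in knockout and 12.69 to 13.10 in wild type on the log2 scale. Leaving out the knockout replicate 3 gave 4 calls, Batf3 among them, leaving out the wild-type replicate 3 gave 3 without Batf3, and leaving out any other array gave 0. This list stood 0.11, 0.44 and 0.01 above its genes' means on knockout arrays, against -0.24, -0.27 and -0.05 on wild-type arrays. Its wild-type arrays ran in the same order as those of the mitoribosomal genes, and its knockout arrays did not lie together as theirs did. Each order rests on 3 arrays, and no test set these lists against the mitoribosomal genes.

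The 9 macrophage markers had a median of -0.05, with summed levels of 16.12 to 16.23 in knockout and 16.23 to 16.25 in wild type. Of these, 2 fell (2.05% of all genes did), the Fc receptor Fcgr1 (-1.13) and the receptor Mertk (-0.46). Both lost the call when replicate 1 of either genotype or the wild-type replicate 2 was left out, and Mertk also when the knockout replicate 2 was. Neutrophil markers had lower means for 9 of 11 genes (median -0.53, 0 past the threshold), with Ngp at -0.92 and Camp at -1.03. At an unadjusted p under 0.05, 8 of the 11 were lower, beside 1482 of the 18193 genes. Their summed levels were 14.35 to 14.87 in knockout and 14.87 to 15.18 in wild type. Without knockout replicate 3, where 2.2% of all genes fell, 6 of them passed as lower, and 0 passed when any other array was left out. The neutrophil list stood at -0.16, -0.56 and 0.05 on knockout arrays, against 0.23, 0.09 and 0.35 on wild-type arrays. These wild-type arrays too ran in the order of the mitoribosomal genes. So did those of the cytosolic ribosomal genes (-0.09, -0.11 and -0.06) and the mitochondrial tRNA synthetases (-0.05, -0.17 and -0.03), but not those of the macrophage and fibroblast lists. What this shared order comes from was not tested. Of 11 fibroblast markers 10 had lower means and 4 fell, Col1a2, Dcn, Col3a1 and Acta2 (median -0.30), with summed levels of 9.44 to 9.48 in knockout and 9.86 to 9.93 in wild type, although 5 of the 11 lay under the median level of the arrays. Of these 4, Col1a2 alone passed whichever array was left out, and 1 to 3 passed in all. Most of the defining markers of other cells lay under the median level of the arrays. These were 6 of 9 epithelial tumour markers, all 4 B cell markers, 5 of 6 T and NK cell markers, 4 of 6 mast cell markers and 3 of 4 erythroid markers. The highest epithelial tumour marker had a mean of 8.23. What part dividing cells, dendritic-like cells, neutrophils or stromal cells had in the mitoribosomal values was not tested.

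**Figure D4:**
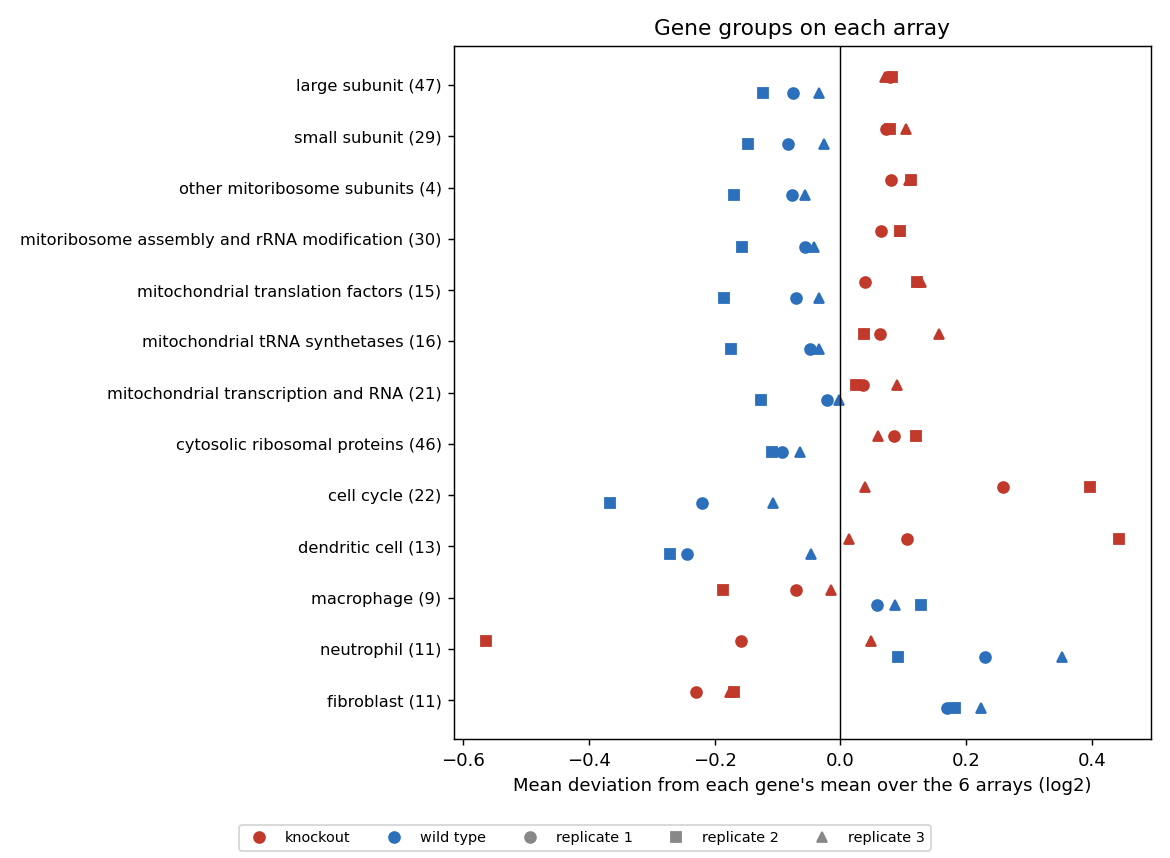
Mean deviation of each gene list from its genes' means over the 6 arrays (log2), by array; red marks knockout, blue wild type, and the symbol the replicate number, with the number of genes in brackets. Mitoribosomal genes on the 3 knockout arrays lie together near 0.08, and the cell cycle, dendritic cell and neutrophil lists are spread over the knockout arrays. On the wild-type arrays all of these lists are lowest on replicate 2 and highest on replicate 3. No test compared the lists.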

How the data were processed

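Gene expression was measured in 3 E-FABP knockout and 3 wild-type samples on Affymetrix 3' expression arrays with biotin-labelled RNA, per the labels' protocols. The authors deposited log2 intensities of 45101 probe sets, a scale inferred from the range they span. Per the submitters' processing notes, the authors used GCRMA 2.30.0, RMA, affy 1.36.1 and limma 3.14.4, in no stated role or order. Which of GCRMA and RMA made the values is therefore not known here. Both usually bring arrays to 1 distribution, which would hide a change shared by most genes, and they treat dim probe sets differently. Scanner intensities were not used here, and the number of arrays limits the precision.

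The 64 control probe sets were left out and 45037 were tested, with no filter on level. Gene symbols came from the platform annotation, with 34945 probe sets naming 1 gene, 932 several and 9160 unnamed here. Probe sets that name a member together with another gene (4) were not used. Levels of different probe sets were not set against each other.

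The genotypes were compared in R 4.3.3 with limma 3.58.1 (lmFit, then eBayes; genotype alone; prior degrees of freedom 5.04). Benjamini-Hochberg adjustment ran over all 45037 probe sets, with a threshold of 0.05 and differences as knockout minus wild type. Permuting the 6 arrays cannot give a two-sided p under 0.1. No array repeated another (0 identical pairs). On simulated arrays with 45037 probe sets, the share of known changes recovered was 53.7% at a size of 0.5, 94.0% at 1 and 100% at 2 (log2), with 4 false calls. All members differed by less than the smallest of these.

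The members, the other gene lists and the groups by place in the ribosome were chosen with earlier results of these data known. By the rule for named genes, the text gives Fabp5, every member past the threshold, the 6 members of each subunit with the smallest p, the 3 largest differences each way, the members with the highest and lowest mean, those whose probe sets oppose each other, and up to 4 genes per list. The other members are named to complete the groups, and Nnt as a marker of strain background. The grouping by place is coarse and was made after the values were seen. Promoters are RefSeq's (GRCm38.p6). No genome build is tied to the array values.

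Alternatives were median centring, quantile normalization, a floor at the 20th percentile (4.07), probe sets above the median level (5.63) alone, array weights, trend and robust settings of eBayes, a block for the replicate number, no probe sets ending in _s_at or _x_at, averaged probe sets of a gene, updated symbols, Mrps30 and Mrps18a counted with the large subunit, an adjusted p under 0.1 and leaving out each array. Plots were made in Python 3.11.15 with matplotlib 3.10.9.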

Additional observations from a re-analysis of the deposited data

How the results depend on the processing

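The median differences kept their sign and stayed within the spread between replicates under all 17 alternatives, at 0.13 to 0.18 for the large and 0.15 to 0.20 for the small subunit. Members with the higher mean in knockout numbered 69 to 72 of 76 (68 of 73 without probe sets ending in _s_at or _x_at). The number of members past the threshold was not stable. For the large subunit (3) it was 6 with median centring, 14 among probe sets above the median level, 16 with trend and robust settings, 16 at an adjusted p under 0.1 and 0 with the floor. The small subunit (0) gave 5 among probe sets above the median level, 7 with trend and robust settings and 5 at an adjusted p under 0.1. These counts take both directions, and the fall of Mrpl39 is 1 of the 14 and 1 of each 16. In these settings other than the floor, more genes of all kinds rose than the 2.85% of the main fit. With median centring, 7.89% of members rose, against 3.61% of all genes. Among probe sets above the median level, 23.7% of members rose, against 9.24% of the genes kept. Under trend and robust settings, 28.9% of members rose, against 6.51% of all genes. At an adjusted p under 0.1 the shares were 26.3% and 7.04%. The floor left fewer rising, 24 of the 18193 genes against 519 in the main fit. With any 1 array left out, 0 to 0 members of the large and of the small subunit were called, with 18 to 23 and 10 to 16 higher at an unadjusted p under 0.05 (limma). Fewer samples remain in these fits, and over all probe sets 40 to 1360 were called, against 1691. Knockout and wild-type samples with the same replicate number did not deviate together (r of -0.06, -0.04 and -0.13, beside -0.05 to 0.11 for different numbers). This gave no sign that the number pairs them, but 3 arrays per genotype cannot settle it. With the replicate number as a block, 0 members were called, with 20 large and 17 small subunit genes higher at an unadjusted p under 0.05, and 92 probe sets in all. For this fit and those with 1 array left out, no share of all genes at the unadjusted p is given here for comparison. Mrpl39 passed the threshold, as lower, among probe sets above the median level (limma adjusted p = 0.0375) and with trend and robust settings (limma adjusted p = 0.0129). The sign turned for Mrpl38 (-0.059) without probe sets ending in _s_at or _x_at and for Mrpl1 (0.062) with the mean of its probe sets, since other probe sets then stand for the gene.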

Other observations

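The differences of the members lay close together. The middle 50% of small subunit genes lay between 0.16 and 0.21 and of large subunit genes between 0.08 and 0.25, whereas genes in the members' range of levels lay between -0.04 and 0.18.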
